A study of Mus musculus with 12 samples.

Results

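The 10 genes of the integrated stress response and the endoplasmic reticulum stress response described here were measured in dorsal root ganglia, the clusters of sensory neuron cell bodies beside the spinal cord. They were Atf4, Atf5, Ddit3, Trib3, Chac1, Asns, Sesn2, Ppp1r15a, Xbp1 and Atf6. They were chosen by gene name from the deposited count table, and all 10 were found and passed the filter on low counts that left 17002 of 54532 genes for testing. Ddit3 had 2 entries, of which one of 105 bases within the gene had no counts in any library, so the values given are those of the other.

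The 6 DAAO libraries came from C57BL/6 mice of genotype DAAO-TGCdh5 given D-alanine, and the 6 control libraries came from C57BL/6 mice of genotype CDH5-Cre, also given D-alanine. DAAO is D-amino acid oxidase, an enzyme that turns D-alanine into pyruvate and makes hydrogen peroxide in doing so. Cdh5 is the gene of vascular endothelial cadherin, whose promoter is active in endothelial cells. The sample names of both groups carry Cre, while the genotype label names it only for the controls. The sources used here give neither age nor sex, nor whether each library is 1 animal, and the p-values therefore cover the spread among these libraries, which may in part be technical. Whole ganglia were sequenced, and fewer cells of a type cannot be told apart from less RNA per cell.

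The integrated stress response starts with kinases that phosphorylate the initiation factor eIF2, which slows most translation while translation of ATF4 increases through upstream reading frames in its mRNA. ATF4 then raises transcription of genes for amino acid supply, of further transcription factors and of a feedback phosphatase subunit. The endoplasmic reticulum has its own sensors, PERK, IRE1 and ATF6, and PERK is also an eIF2 kinase. Oxidants can engage these pathways in many cell types. Much of the regulation is not visible in transcript counts, since ATF4 protein is set by translation, XBP1 by splicing and ATF6 by cleavage.

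For none of the 10 stress genes did a difference between DAAO and control ganglia pass the test. By edgeR's quasi-likelihood test, 0 of 10 passed at an adjusted p under 0.05, where 0.753% of all genes tested did (0.506% higher and 0.247% lower in DAAO). No member reached an unadjusted p under 0.05 either, a level that 10.3% of all genes tested reached, and DESeq2 and limma-voom with sample weights also called 0 of 10. DESeq2 gave an unadjusted p under 0.05 for 0 members and limma-voom for 1, Atf5. The CPM of the groups overlapped in all 10 genes and failed to overlap in 1.45% of all genes tested. CPM are counts scaled to a common library size with TMM factors. The log2 fold changes of the members, DAAO minus control, ran from -0.24 for Sesn2 to 0.49 for Chac1, with 5 positive and 5 negative and a median of 0.00010, against 0.0021 for all genes tested.

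The 95% confidence intervals of the fold changes, which are not adjusted for the number of genes, say how large a difference the libraries leave room for. Their upper bound was below 1.5-fold for 7 of 10 members and below 2-fold for 9 of 10. The exception was Chac1, with an upper bound of 2.11-fold. Their lower bound lay above 0.5-fold in all 10 members. These bounds are for RNA of whole ganglia, and a difference confined to 1 cell type, such as endothelial cells, was not measured.

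**Figure D1:**
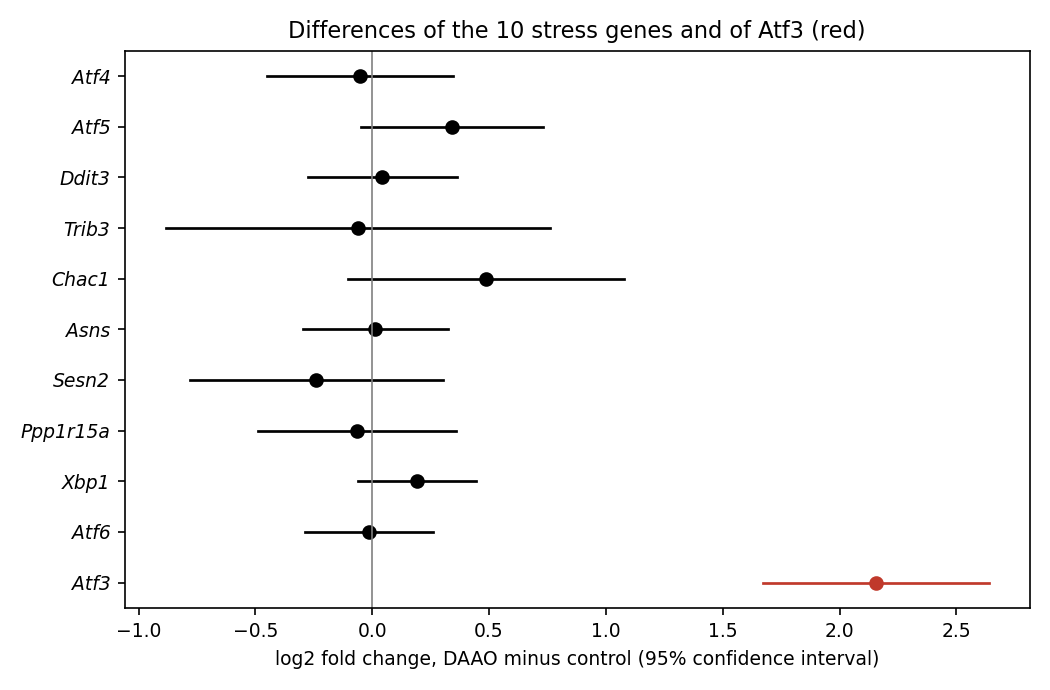
Log2 fold change of each stress gene, DAAO minus control, with its 95% confidence interval (bars) from 6 DAAO and 6 control libraries. All 10 intervals include 0, while Atf3, drawn in red for scale, lies at 2.16.

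Library totals ran from 15142143 to 23884927 counts in DAAO and from 13227518 to 21687473 in controls and differed by less than their spread (two-sided exact permutation test, p = 0.859, n = 6 in each group). Pan-neuronal markers were present in every library, with a summed level of 6850 to 11349 CPM in DAAO and 8966 to 13368 CPM in controls. Of the 8 markers 6 had negative log2 fold changes and 1 passed the test, Snap25, a synaptic protein gene that fell by 0.61 on the log2 scale (SE 0.14, adjusted p = 0.0498). The 6 endothelial markers summed to 88.9 to 166 CPM in DAAO and 90.4 to 139 CPM in controls. Marker sums of tissues that adjoin the ganglion varied more. Skeletal muscle markers summed to 20.01 to 495 CPM in DAAO and 84.8 to 2712 CPM in controls, and oligodendrocyte markers to 317 to 801 CPM in DAAO and 211 to 2843 CPM in controls. The log2 fold change was negative for all 8 muscle markers (median -2.34) and all 6 oligodendrocyte markers (median -0.61), and 0 of either list were called. In 5 libraries, DAAO 1, 2 and 6 and controls 1 and 2, both Xist and Y-linked transcripts were above 10 CPM, and how many animals a library holds is not stated. The mouse gene Dao stood at 1.10 ± 1.05 CPM in DAAO and 1.09 ± 1.98 CPM in controls (SD, n = 6), and the sources used here do not say whether reads of the transgene were counted under it.

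Transcription factors at the head of the response were examined first. Atf4, the central factor (ENSMUSG00000042406; GRCm38 chromosome 15, 80255184 to 80257541), had a lowest, median and highest level of 157, 178 and 212 CPM in DAAO, against 113, 178 and 306 CPM in controls. The control libraries lay on both sides of the DAAO range, with controls 4 and 5 below it and controls 2 and 6 above it. DAAO minus control was -0.05 ± 0.19 on the log2 scale (SE, adjusted p = 0.969), and its interval allowed a fold between 0.731 and 1.27. Without control 6 the difference was 0.13, with an adjusted p of 0.832. With all libraries kept it was 0.080 by limma-voom and 0.0062 with the replicate number as a block, so its sign was not stable.

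Atf5 (ENSMUSG00000038539; chromosome 7, 44812256 to 44816658) encodes a related factor that is also translated through upstream reading frames and has been linked to the mitochondrial unfolded protein response. Its lowest, median and highest levels were 86.0, 101 and 115 CPM in DAAO, against 44.9, 80.1 and 123 CPM in controls. All 6 DAAO libraries lay above the control median, but control 2 was the highest of the 12. The log2 fold change of 0.34 ± 0.18 did not pass (SE, adjusted p = 0.559). With single libraries left out it lay between 0.21 without control 5 (adjusted p = 0.792) and 0.51 without control 2 (adjusted p = 0.105). Its lowest adjusted p over 22 alternatives was 0.104. Atf5 shares 82 exonic bases with Nup62 on the other strand, and the sources used here do not say whether counting used strand, so reads of this overlap are uncertain. Nup62, a nuclear pore protein gene, differed by 0.22 ± 0.13 on the log2 scale (SE, adjusted p = 0.612).

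Ddit3 (ENSMUSG00000025408; chromosome 10, 127290774 to 127296288) encodes CHOP, the factor tied to cell death under prolonged stress. Its levels were 25.0, 28.0 and 39.5 CPM in DAAO (lowest, median and highest), against 22.3, 28.7 and 34.4 CPM in controls. The groups overlapped almost entirely, with DAAO 5 the highest library. Their log2 difference was 0.04 ± 0.15 (SE, adjusted p = 0.969), within an interval of 0.826 to 1.29-fold. Ddit3 shares 68 exonic bases with Mars, the methionyl-tRNA synthetase gene on the other strand, and the log2 difference of Mars was -0.10 ± 0.15 (SE, adjusted p = 0.910).

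**Figure D2:**
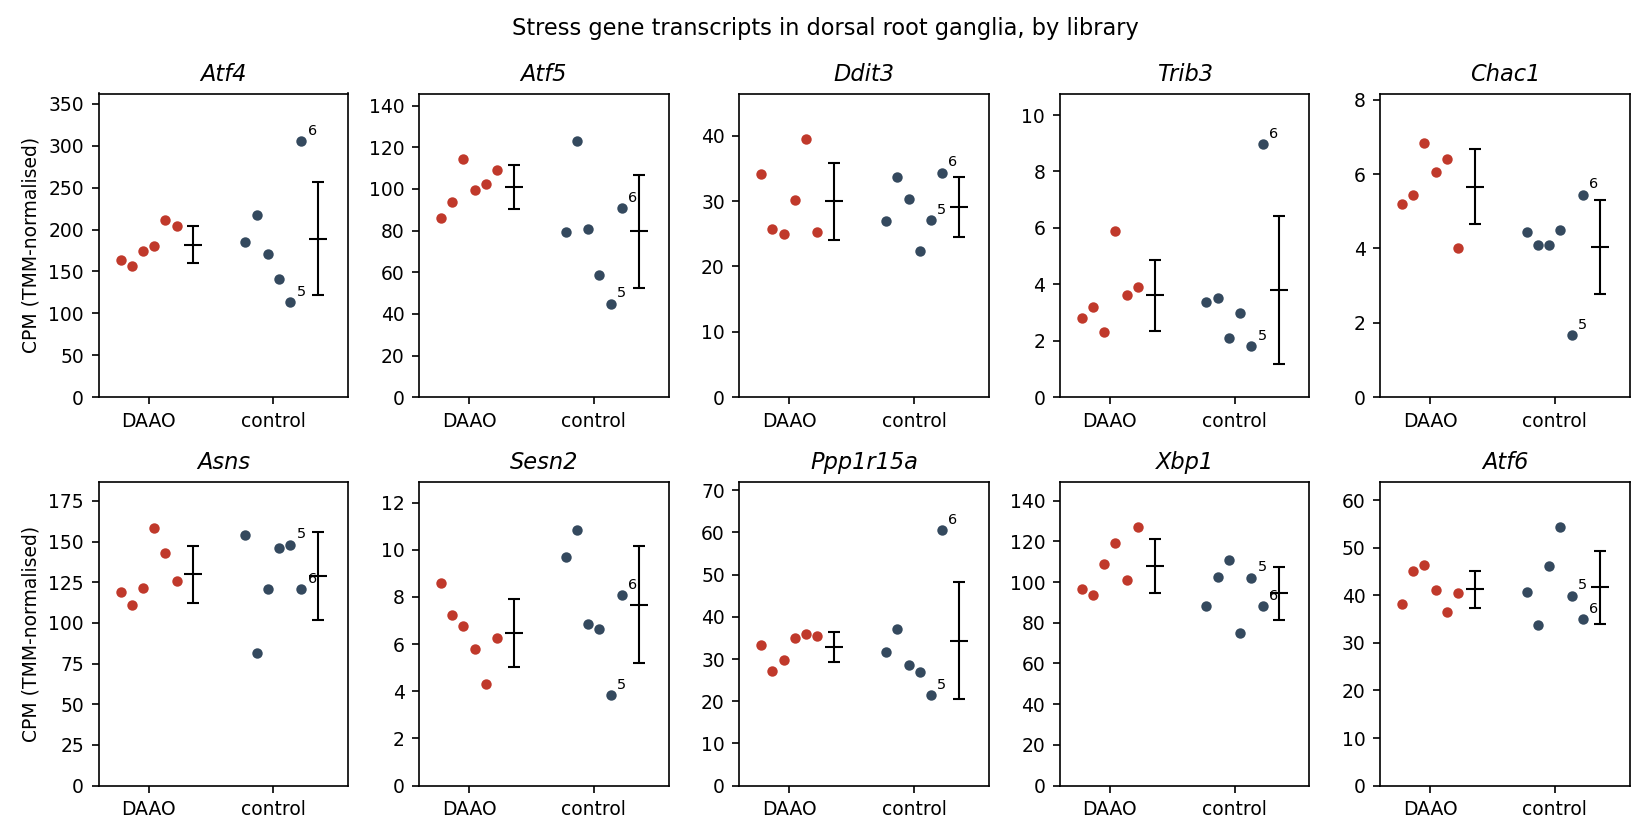
Level of each stress gene in CPM (TMM-scaled, as above) in 6 DAAO libraries (red) and 6 control libraries (dark), drawn from replicate 1 to 6, with mean ± SD beside each group. Numbers mark controls 5 and 6. The groups overlap in every panel, and control 6 lies above all other libraries for Atf4, Trib3 and Ppp1r15a.

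ATF4 acts on many targets through a composite site called the C/EBP-ATF response element, searched here as TGATGNAA on both strands of the RefSeq promoters (build GRCm38.p6, from 250 bases before to 50 bases after each start). Promoters were matched for 9 of the 10 members, in 10 entries, and Atf6 had none. The letters occurred in 3 of the 9, Asns, Chac1 and Trib3, and in 3.97% of all 32851 promoters. A cyclic AMP response element, TGACGTCA, which reads the same on both strands, occurred in Ppp1r15a and in 1.79% of all promoters. The ER stress response element, CCAAT and CCACG with 9 bases between them, was also searched on both strands and occurred in 0 of the 9 and in 0.119% of all promoters. No match overlapped another, and a match is a description of the letters only. The stretches are shown so that the matched letters can be seen in place. They are in capitals, and each stretch is read 5′ to 3′ along its gene. In Chac1 and Trib3 the match is on the opposite strand, so the capitals are the reverse complement of the element, and in Ppp1r15a they are the cyclic AMP response element:
Asns, chr6:7693214-7693243, minus strand: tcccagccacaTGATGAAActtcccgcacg
Chac1, chr2:119351038-119351067, plus strand: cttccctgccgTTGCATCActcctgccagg
Trib3, chr2:152344028-152344057, minus strand: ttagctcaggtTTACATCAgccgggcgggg
Ppp1r15a, chr7:45526262-45526291, minus strand: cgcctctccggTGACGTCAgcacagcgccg
The match began 23 bases before the RefSeq start in Asns, 193 before it in Chac1 and 12 before it in Ppp1r15a, and at base 15 after it in Trib3. The gene positions of the count table place these starts differently. By those positions the Asns match lies within the gene and the Trib3 match lies before its start.

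Asns (ENSMUSG00000029752; chromosome 6, 7675169 to 7693254) encodes asparagine synthetase, which makes asparagine from aspartate and is induced when amino acids run short. Its lowest, median and highest levels were 111, 124 and 158 CPM in DAAO, against 81.7, 133 and 154 CPM in controls. DAAO 4 was the highest of the 12 libraries and control 2 the lowest. This was a log2 difference of 0.01 ± 0.15 (SE, adjusted p = 0.994), with an interval from 0.814 to 1.25-fold.

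Chac1 (ENSMUSG00000027313; chromosome 2, 119351229 to 119354381) encodes an enzyme that breaks down glutathione, the main thiol antioxidant of cells. It showed the largest fold change of the members, with levels of 4.02, 5.74 and 6.84 CPM in DAAO (lowest, median and highest), against 1.67, 4.27 and 5.45 CPM in controls. Of the 6 DAAO libraries 5 lay above the control median, while control 5 lay far below every other library. A log2 fold change of 0.49 ± 0.28 did not pass (SE, adjusted p = 0.594), and without control 5 it was 0.31 (adjusted p = 0.785). Over the 12 libraries Chac1 had 1074 counts.

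Trib3 (ENSMUSG00000032715; chromosome 2, 152337422 to 152344032) encodes a pseudokinase that binds ATF4 and CHOP and limits them. Its levels were 2.30, 3.40 and 5.88 CPM in DAAO (lowest, median and highest), against 1.82, 3.19 and 8.97 CPM in controls. Control 6 was the highest library, followed by DAAO 4. For Trib3 the log2 difference was -0.06 ± 0.39 (SE, adjusted p = 0.986), and 0.38 without control 6 (adjusted p = 0.737). With 785 counts in all it was the least covered member, and its interval of 0.542 to 1.69-fold was wide.

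Sesn2 (ENSMUSG00000028893; chromosome 4, 132492032 to 132510501) encodes sestrin 2, a leucine sensor that restrains the growth kinase mTORC1. Its levels were 4.29, 6.53 and 8.57 CPM in DAAO (lowest, median and highest), against 3.84, 7.46 and 10.8 CPM in controls. Only 1 DAAO library lay above the control median, and the 2 highest libraries were controls 1 and 2. Sesn2 differed by -0.24 ± 0.26 on the log2 scale (SE, adjusted p = 0.847). With single libraries left out the difference lay between -0.39 without control 5 and -0.11 without control 2, and it was -0.14 without DAAO 5.

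Ppp1r15a (ENSMUSG00000040435; chromosome 7, 45522916 to 45526268) encodes GADD34, which directs a phosphatase to eIF2 and so ends the response. Its levels were 27.1, 34.2 and 35.96 CPM in DAAO (lowest, median and highest), against 21.5, 30.1 and 60.5 CPM in controls. Control 6 stood apart at the top and control 5 was the lowest library. With all libraries the log2 difference was -0.07 ± 0.20 (SE, adjusted p = 0.964), and without control 6 it was 0.16 (adjusted p = 0.749). Tulp2, on the other strand, shares 12 exonic bases with Ppp1r15a and had 194 counts over the 12 libraries, against 7248 for Ppp1r15a.

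The arms of the response that belong to the endoplasmic reticulum were read through Xbp1 and Atf6. Xbp1 (ENSMUSG00000020484; chromosome 11, 5520659 to 5525893) encodes a factor whose mRNA must be cut by IRE1 to yield the active protein. The stretch removed is shown because counts per gene add the cut and the uncut forms together. It is 26 bases long and lies in exon 4 of GENCODE transcript Xbp1-201, on the plus strand of GRCm38, with the removed bases in capitals:
Xbp1, chr11:5524267-5524316: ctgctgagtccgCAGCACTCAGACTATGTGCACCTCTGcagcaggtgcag
Total Xbp1 stood at 93.8, 105 and 127 CPM in DAAO (lowest, median and highest), against 74.9, 95.2 and 111 CPM in controls. DAAO 6 was the highest library and control 4 the lowest. The total differed by 0.19 ± 0.12 on the log2 scale (SE, adjusted p = 0.639), with an interval of 0.958 to 1.36-fold.

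Atf6 (ENSMUSG00000026663; chromosome 1, 170704674 to 170867771) encodes a membrane-bound factor that is released by cleavage in the Golgi and then raises chaperone genes. Its levels were 36.5, 40.7 and 46.4 CPM in DAAO (lowest, median and highest), against 33.8, 40.3 and 54.4 CPM in controls. The DAAO range lay inside the control range. The log2 difference of -0.01 ± 0.13 (SE) had an adjusted p of 0.993, with an interval of 0.819 to 1.199-fold, the lowest upper bound among the 10 genes.

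Levels were compared between genes per length, as TPM over the genes tested. Atf4 was the most abundant member, at 217 ± 46.1 TPM in DAAO and 227 ± 60.02 TPM in controls (SD, n = 6), and stood above 96.4% of genes tested in DAAO and 96.2% in controls. In DAAO it was followed by Atf5 at 141 ± 20.5, Asns at 133 ± 27.4, Xbp1 at 93.1 ± 17.9, Ddit3 at 49.4 ± 13.3, Ppp1r15a at 31.4 ± 6.36 and Atf6 at 12.4 ± 0.641 TPM. Chac1 at 9.59 ± 1.67, Sesn2 at 5.17 ± 1.078 and Trib3 at 4.81 ± 1.89 TPM were the lowest in DAAO. In controls the order differed only in that Asns, at 139 ± 40.2 TPM, stood above Atf5, at 113 ± 29.3 TPM. In DAAO the ranges of Atf5 and Asns overlapped, with Atf5 the higher in 3 of 6 libraries, and so did those of Sesn2 and Trib3, with Sesn2 the higher in 3 of 6. Between neighbours in this order the ranges did not overlap in DAAO for Ppp1r15a and Atf6 and for Chac1 and Sesn2, and in controls for Xbp1 and Ddit3, for Ppp1r15a and Atf6 and for Atf6 and Chac1.

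Control libraries differed from each other more than the DAAO libraries did. The SD of log2 CPM was larger in controls for 9 of 10 members, with Ddit3 the exception, and for 79% of all genes tested. The median ratio of the control SD to the DAAO SD was 1.86 over the members and 1.52 over all genes tested. For Atf4 the SD of log2 CPM was 0.17 in DAAO and 0.50 in controls, and for Ppp1r15a it was 0.16 in DAAO and 0.51 in controls. Control 5 was the lowest of the 12 libraries for 6 members, Atf4, Atf5, Trib3, Chac1, Sesn2 and Ppp1r15a, and control 6 was the highest for 3, Atf4, Trib3 and Ppp1r15a. The mean centred log2 CPM over the 10 members ran from -0.05 to 0.19 in DAAO and from -0.52 in control 5 to 0.33 in control 6. Control 6 also had the fewest counts (13227518), the largest mitochondrial share (7.65% of counts, against 3.32% to 5.13% in DAAO) and the largest sum of pan-neuronal markers (13368 CPM). Control 2 had nearly the same mitochondrial share, 7.44%, with a mean centred log2 CPM of the members of 0.083. Control 5 had 19730726 counts, a mitochondrial share of 4.78% and skeletal muscle markers that summed to 1089 CPM. The part of depth, mitochondrial share or tissue in these levels was not tested. Leaving out controls 5 and 6, which was decided once the data had been seen, 0 of 10 members passed, and 84 of all genes tested did, against 128 with all libraries.

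**Figure D3:**
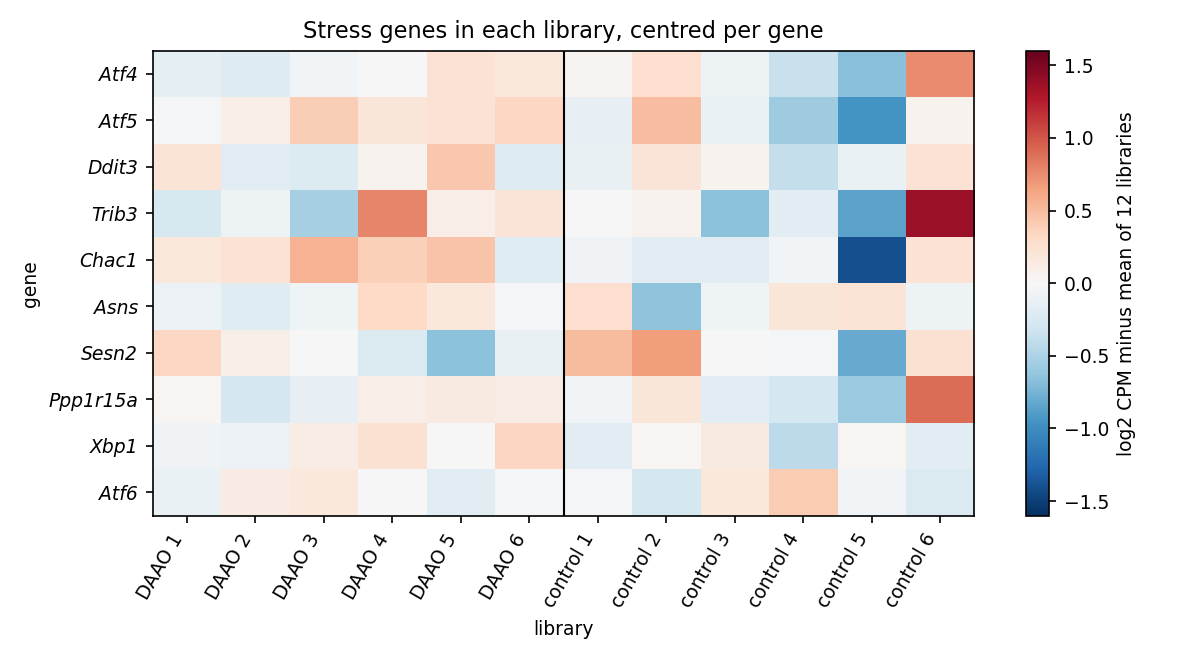
Log2 CPM of each stress gene (rows) in each library (columns, DAAO left of the line and controls right of it), minus the gene's mean over the 12 libraries. Control 5 is the lowest library for 6 genes and control 6 the highest for 3, while the DAAO columns vary less.

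The other members were set against Atf4 across the 12 libraries, in 9 relations of log2 CPM with permutation p-values (two-sided, 100000 resamples) adjusted over the 9. Ppp1r15a, the feedback subunit, followed Atf4 closely, with a Pearson r of 0.96 (permutation p = 1e-05, the smallest the resamples can give; adjusted p = 9e-05) and a Spearman rho of 0.94 (permutation p = 2e-05; adjusted p = 0.00018). Its r was 0.87 without controls 5 and 6, the 2 libraries farthest from the Atf4 median, and it was 0.78 within DAAO and 0.98 within controls (n = 6 each). The values within each group were not tested, and for neither gene did the difference between the groups pass.

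Trib3 had an r of 0.79 (permutation p = 0.00312; adjusted p = 0.014) and a rho of 0.78 (permutation p = 0.00424; adjusted p = 0.0191). Without controls 5 and 6 its r was 0.36, so the relation rests on those libraries, and it was 0.36 within DAAO and 0.89 within controls. The relation of Atf5 did not pass the adjustment, with an r of 0.68 (permutation p = 0.0169; adjusted p = 0.0508) and a rho of 0.62 (permutation p = 0.0334; adjusted p = 0.0857). Its r was 0.76 without controls 5 and 6, 0.56 within DAAO and 0.81 within controls. Asns, a textbook ATF4 target, had an r of -0.33 (permutation p = 0.281; adjusted p = 0.317) and a rho of -0.18 (permutation p = 0.569; adjusted p = 0.617). For Asns r was -0.27 without controls 5 and 6, 0.57 within DAAO and -0.51 within controls. The relations of Ddit3, Chac1, Sesn2, Xbp1 and Atf6 did not pass either, with r from -0.59 for Atf6 to 0.54 for Ddit3, adjusted p of r from 0.105 to 0.793 and adjusted p of rho from 0.0857 for Atf6 to 0.617 for Xbp1. Without controls 5 and 6 r was -0.83 for Atf6, 0.58 for Ddit3, -0.07 for Chac1, -0.03 for Sesn2 and 0.58 for Xbp1. For Sesn2 r was -0.82 within DAAO and 0.73 within controls, and for Atf6 it was -0.55 within DAAO and -0.60 within controls. Ddit3 had 0.34 within DAAO and 0.75 within controls, Chac1 -0.13 within DAAO and 0.76 within controls, and Xbp1 0.56 within DAAO and -0.04 within controls. None of these values within a group, or the differences between them, was tested. Levels are relative to the counts of each library, and the 9 relations share the values of Atf4. How many of all genes tested follow Atf4 as closely was not examined, so no relation is shown to be particular to the members.

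**Figure D4:**
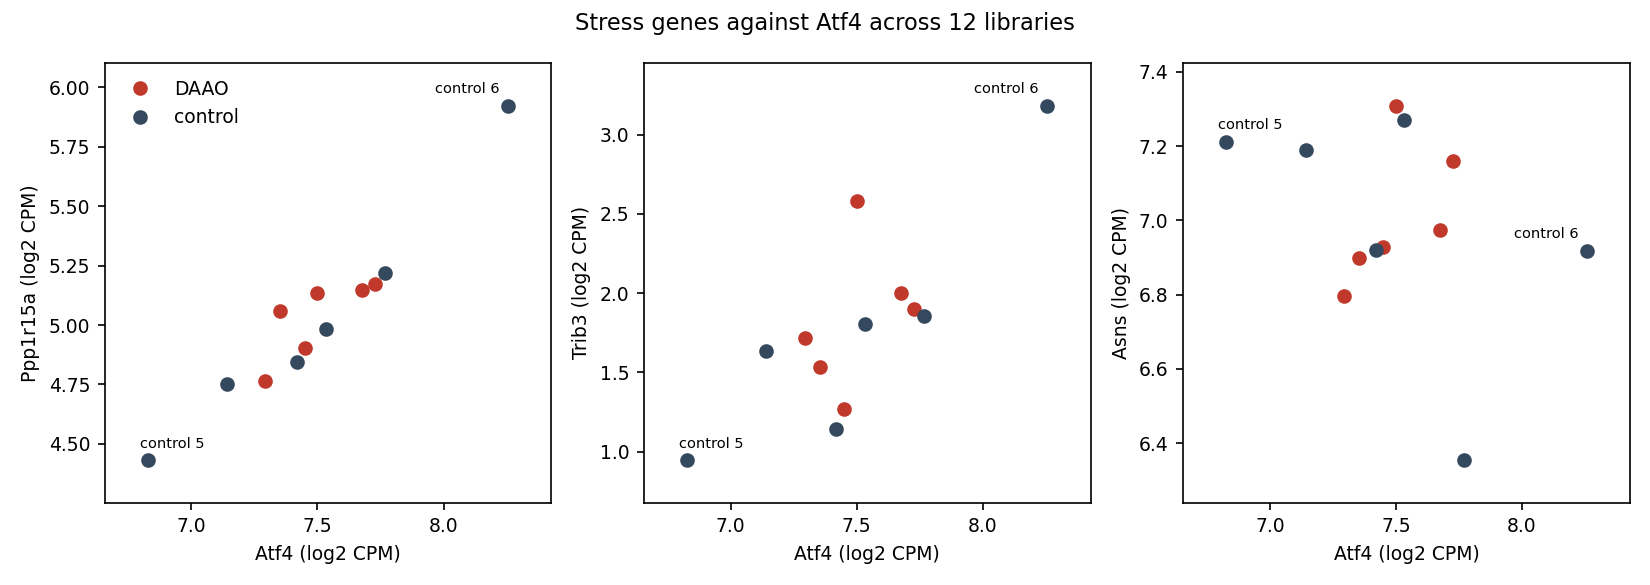
Log2 CPM of Ppp1r15a, Trib3 and Asns (vertical axes) against Atf4 (horizontal axes) in 6 DAAO libraries (red) and 6 control libraries (dark). Over all 12 libraries Ppp1r15a follows Atf4 (r = 0.96), the relation of Trib3 rests on controls 5 and 6, and Asns shows none that passed.

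The wider pathway was described by 8 lists of genes around the members. Of their 144 genes 143 were tested, all but Fgf21, and 1 of them, Atf3, changed over all genes tested. This is 0.699% of the genes tested from the lists, beside 0.753% of all genes. An unadjusted p under 0.05 was reached by 14 of the 143 (9.79%), beside 10.3% of all genes. The median log2 fold change of the 143 genes was -0.03.

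**Figure D5:**
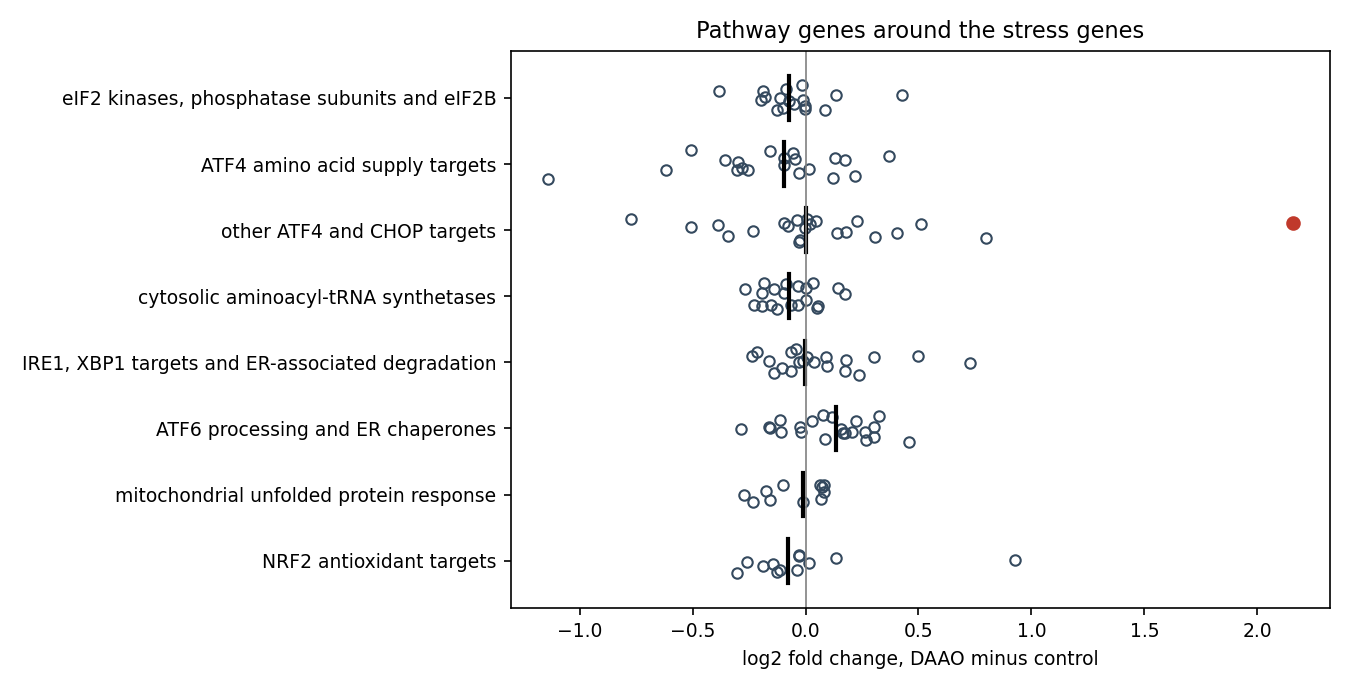
Log2 fold change, DAAO minus control, of each tested gene of the 8 pathway lists (circles), with the list's median (black line) and the gene that passed at an adjusted p under 0.05 filled in red. List medians lie between -0.10 and 0.14, and Atf3, at 2.16, is the only filled point.

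Atf3, a target of ATF4 that injured sensory neurons also induce, stood at 44.6 to 93.6 CPM in DAAO and 9.78 to 20.6 CPM in controls, with no overlap, and rose by 2.16 ± 0.23 on the log2 scale (SE, adjusted p = 0.000235). It was in the list of other ATF4 and CHOP targets, whose 22 tested genes had 11 positive and 11 negative log2 fold changes and a median of 0.0022. The 8 markers of injured sensory neurons, of which Atf3 is one, had 4 positive and 4 negative log2 fold changes and a median of -0.05, and Atf3 was the only one of the 8 that passed. Their summed level was 332 to 439 CPM in DAAO and 233 to 395 CPM in controls. The genes of next smallest p among the ATF4 and CHOP targets did not pass. Bcl2l11, which encodes the pro-apoptotic protein BIM, stood at 11.2 ± 2.13 CPM in DAAO and 6.44 ± 1.02 CPM in controls (SD, n = 6), a log2 difference of 0.80 ± 0.20 (SE, adjusted p = 0.0835). It passed without DAAO 5 (adjusted p = 0.0320), with DESeq2 (adjusted p = 0.0126) and with limma-voom (adjusted p = 0.0415), and in no other alternative. By edgeR's test its adjusted p was 0.214 without DAAO 3 and 0.134 with the replicate number as a block. Vldlr, the very low density lipoprotein receptor, stood at 28.7 ± 3.58 CPM in DAAO and 40.7 ± 5.49 CPM in controls, with no overlap and a log2 difference of -0.51 ± 0.13 (SE, adjusted p = 0.0907). It passed with DESeq2 (adjusted p = 0.0168) and with limma-voom (adjusted p = 0.0246), and in no other alternative. By edgeR's test the adjusted p of Vldlr was 0.261 without DAAO 6.

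Genes of amino acid supply, the metabolic output of ATF4, gave no call. Of 20 genes 0 passed, with 6 positive and 14 negative log2 fold changes, a median of -0.10 and 1 unadjusted p under 0.05. With single libraries left out the median lay between -0.20 without control 6 and -0.025 without control 2. It was -0.030 with limma-voom, -0.017 with the replicate number as a block and -0.15 without controls 5 and 6 or without controls 2, 4 and 6. The gene with an unadjusted p under 0.05 was Gpt2, the mitochondrial alanine aminotransferase, at 82.2 ± 11.6 CPM in DAAO and 117 ± 35.5 CPM in controls (SD, n = 6), a log2 difference of -0.50 ± 0.17 (SE, adjusted p = 0.253). No DAAO library lay above the control median of Gpt2. The amino acid transporters Slc38a2 and Slc7a5 had -0.28 ± 0.14 and -0.25 ± 0.13 (SE, adjusted p = 0.511 and 0.515).

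The enzymes that charge tRNAs with amino acids, many of them ATF4 targets, also gave 0 of 20, with 7 positive and 13 negative log2 fold changes, a median of -0.07 and no unadjusted p under 0.05. Eprs, Aars and Lars had the smallest p, with log2 fold changes of -0.27 ± 0.14, -0.23 ± 0.12 and -0.19 ± 0.12 (SE, adjusted p = 0.537, 0.541 and 0.623). The list of eIF2 kinases, phosphatase subunits and eIF2B subunits also held subunits of eIF2 itself and regulators such as Gcn1l1 and Impact. Of its 17 genes 0 passed, with 3 positive and 14 negative log2 fold changes and a median of -0.07. An unadjusted p under 0.05 was reached by 2 of the 17 (11.8%, beside 10.3% of all genes), 1 higher and 1 lower in DAAO. Among them Gcn1l1, which encodes an activator of the kinase GCN2, stood at 75.0 ± 6.86 CPM in DAAO and 55.8 ± 13.1 CPM in controls, with a log2 difference of 0.43 ± 0.14 (SE, adjusted p = 0.231) and all 6 DAAO libraries above the control median. Eif2b4, a subunit of the exchange factor that reloads eIF2, stood at 31.2 ± 4.17 CPM in DAAO and 40.7 ± 8.27 CPM in controls, with -0.38 ± 0.15 (SE, adjusted p = 0.355). Impact, an inhibitor of GCN2 activation, had -0.19 ± 0.11 (SE, adjusted p = 0.602).

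Genes around Xbp1 and around Atf6 were read as separate lists. Besides targets, these lists hold the IRE1 gene, genes of ATF6 processing and factors related to ATF6. Of the 20 genes of IRE1, XBP1 targets and degradation of misfolded proteins 0 passed, with 10 positive and 10 negative log2 fold changes and a median of -0.0019. An unadjusted p under 0.05 was reached by 2 of the 20, both higher in DAAO (10%, beside 10.3% of all genes). Edem1, a lectin that marks misfolded glycoproteins for degradation, stood at 49.0 ± 7.04 CPM in DAAO and 34.7 ± 8.95 CPM in controls, with a log2 difference of 0.50 ± 0.17 (SE, adjusted p = 0.273). The lectins Os9 and Erlec1 had 0.30 ± 0.14 and -0.24 ± 0.15 (SE, adjusted p = 0.477 and 0.630). Of the 22 genes of ATF6 processing and ER chaperones 0 passed, with 15 positive and 7 negative log2 fold changes and a median of 0.14. That median was 0.081 without control 4, 0.072 without controls 5 and 6 and 0.056 with muscle and oligodendrocyte marker levels as terms. It was higher in other settings, at 0.18 without DAAO 2 and 0.16 without controls 2, 4 and 6. In that list 4 genes had an unadjusted p under 0.05, all higher in DAAO (18.2%, beside 10.3% of all genes). Creb3l2, a membrane-bound factor related to ATF6, and the protein disulfide isomerases Pdia4 and P4hb had 0.46 ± 0.18, 0.32 ± 0.14 and 0.27 ± 0.12 (SE, adjusted p = 0.374, 0.422 and 0.439). P4hb stood at 197 to 248 CPM in DAAO and 149 to 207 CPM in controls. Markers of other cell types were read beside this list. The 8 macrophage markers all had positive log2 fold changes and summed to 330 to 1613 CPM in DAAO and 61.7 to 351 CPM in controls, with none at 0. The 6 fibroblast markers, also all positive, summed to 1617 to 3677 CPM in DAAO and 694 to 3477 CPM in controls. Of these markers 1, Lyz2, passed the test (2.46 ± 0.49 SE, adjusted p = 0.0450), and their part in the chaperone values was not tested. The 8 markers of myelinating Schwann cells were all negative, 5 of them with an unadjusted p under 0.05 and 0 called. Their sum was 6444 to 7565 CPM in DAAO and 6195 to 22271 CPM in controls, where control 2 had the 22271 CPM and the next highest library, control 1, had 9742 CPM. Control 2 also had the largest sum of oligodendrocyte markers, 2843 CPM, and the part of that tissue in the Schwann cell marker values was not tested.

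Other pathways of protein and oxidant stress also had 0 genes called, where 0.753% of all genes tested were. At that share a list this short would rarely hold a called gene. The 11 genes of the mitochondrial unfolded protein response had 0 called, a median of -0.01 and no unadjusted p under 0.05. Hspd1 and Hspe1, the mitochondrial chaperonins, had -0.23 ± 0.12 and -0.27 ± 0.17, and the protease gene Yme1l1 had -0.17 ± 0.12 (SE, adjusted p = 0.561, 0.631 and 0.699). Of the 12 targets of NRF2, the factor that answers oxidants, 0 passed, with 3 positive and 9 negative log2 fold changes and a median of -0.08. An unadjusted p under 0.05 was reached by 2 of the 12 (16.7%, beside 10.3% of all genes), 1 higher and 1 lower in DAAO. Osgin1, an oxidative stress-induced gene, stood at 3.92 to 7.35 CPM in DAAO and 1.52 to 6.10 CPM in controls. Its log2 difference was 0.93 ± 0.36 (SE, adjusted p = 0.364). Osgin1 passed without control 2, its highest control library (1.39, adjusted p = 0.0255), and in no other alternative. In the others its adjusted p ran from 0.0561 without controls 2, 4 and 6 to 0.651 without controls 5 and 6. Me1, which makes NADPH, stood at 167 ± 27.2 CPM in DAAO and 206 ± 12.5 CPM in controls, with -0.30 ± 0.12 (SE, adjusted p = 0.363), and Gclm, a subunit of the enzyme for glutathione synthesis, had -0.26 ± 0.12 (SE, adjusted p = 0.503).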

How the data were processed

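Raw counts of reads per gene, not normalised, came from the deposited table of 12 libraries, which also holds gene names, lengths and GRCm38 positions. Per the submitters' processing notes, the tools were HISAT2 2.0.5, FastQC and DESeq2 1.20.0, with GRCm38 and mm10 as builds. The sources used here do not give the counting program, its strand setting or the annotation release. Genes were kept with filterByExpr of edgeR 4.0.16 (minimum count 10, minimum total 15), scaled with TMM and tested with the robust quasi-likelihood test in R 4.3.3, 6 DAAO against 6 control with no other term, two-sided; p-values were adjusted by Benjamini and Hochberg over all 17002 genes, with a threshold of 0.05. SE was taken as the size of the log2 fold change over the root of the F statistic. Log2 CPM used a prior count of 2. TPM used the deposited gene lengths. Genes named were the 10 members, genes that overlap them, and from each of 8 pathway lists those that passed (up to 6) and, where fewer than 3 did, those of smallest p up to 3; markers and Dao were named as checks. The members and lists were chosen with earlier results of these data known. The test was also run on simulated counts with the same spread in both groups, so that run does not cover the larger spread of the controls. Alternatives were DESeq2 1.42.0, limma 3.58.1 (voom), other scaling, other filters, marker levels as terms, a replicate block and libraries left out. Over 66 pairs of libraries the smallest chi-square per degree of freedom was 20, so all differed by more than sampling noise. GENCODE M21 positions of exons were used for overlaps, and promoters came from RefSeq.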

Additional observations from a re-analysis of the deposited data

Results flagged for a closer look

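Single libraries that stood apart from the other 5 of their group were looked for in 72 sets of 6 values, and 5 were found; chance gives about 1 in 20 sets. Of the stress genes, Trib3 reached 8.97 CPM in control 6, where the other controls lay between 1.82 and 3.51 CPM, and Chac1 stood at 1.67 CPM in control 5, where the other controls lay between 4.09 and 5.45 CPM. In the pathway lists, Bcl2l11 stood at 6.98 CPM in DAAO 5, below the 11.6 to 13.0 CPM of the other DAAO libraries. Osgin1 stood at 7.35 CPM in DAAO 3, above the 3.92 to 4.76 CPM of the other DAAO libraries, and at 6.10 CPM in control 2, above the 1.52 to 2.43 CPM of the other controls.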

How the results depend on the processing

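In all 22 alternatives run, 0 of 10 members passed; the lowest adjusted p was 0.104, for Atf5 without controls 2, 4 and 6, libraries that stood apart in earlier results of these data. The count of all genes that changed was 370 with DESeq2, 307 with limma-voom, 269 with muscle and oligodendrocyte marker levels as terms, 230 without controls 2, 4 and 6 and 84 without controls 5 and 6 (left out after the data had been seen), against 128 in the fit reported, and 61 to 322 when each library was left out; it was 78, 65, 73 and 61 without DAAO 1, 2, 3 and 6 and 80, 322 and 77 without controls 1, 2 and 5. For pathway genes it was 3 with DESeq2, 4 with limma-voom and 2 without controls 2, 4 and 6, against 1 in the fit reported, and 1 to 2 with each library left out, the 2 arising without DAAO 5 or control 2. Members whose difference lay near 0 changed sign: with limma-voom Atf4 0.080, Trib3 0.39, Asns -0.041 and Ppp1r15a 0.14; with marker levels as terms Ddit3 -0.049, Asns -0.0065 and Atf6 0.062; without controls 2, 4 and 6 Atf4 0.23, Trib3 0.58, Asns -0.10 and Ppp1r15a 0.28; without controls 5 and 6 Atf4 0.017, Trib3 0.26 and Ppp1r15a 0.069. With each library left out the log2 fold change ran from -0.18 to 0.13 for Atf4, -0.25 to 0.38 for Trib3, -0.084 to 0.062 for Asns, -0.18 to 0.16 for Ppp1r15a, -0.048 to 0.095 for Ddit3 and -0.064 to 0.079 for Atf6, and, with no change of sign, 0.21 to 0.51 for Atf5, 0.31 to 0.58 for Chac1, -0.39 to -0.11 for Sesn2 and 0.13 to 0.23 for Xbp1. The cause was not tested. The p of the difference in total counts ran from 0.355 to 0.987 by a two-sided exact permutation test with each library left out. Nothing in the labels pairs libraries by replicate number, and same-numbered libraries deviated together with a correlation above 0.1 in 2 of 6 pairs (-0.08 to 0.215). With the replicate number as a block, 187 genes changed, 0 members and 1 pathway gene among them, and the log2 fold changes of Atf4 (0.0062), Trib3 (0.081), Ppp1r15a (0.0057) and Atf6 (0.00057) changed sign. Medians near 0 had no stable sign over the 22 alternatives: -0.031 to 0.17 for the members, -0.033 to 0.037 for other ATF4 and CHOP targets, -0.036 to 0.030 for IRE1 and XBP1 genes and -0.070 to 0.021 for the mitochondrial response. Those of tRNA synthetases (-0.10 to -0.035), eIF2 genes (-0.099 to -0.043) and NRF2 targets (-0.15 to -0.055) were negative in all 22. Depth limits Trib3, Chac1 and Sesn2 most.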
